A study of Mus musculus with 6 samples.

Results

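Sin3a, Sin3b, Sap30, Tbl1x, Tbl1xr1, Gps2, Rcor1, Gmcl1 and Bclaf1, 9 mouse genes for subunits of the SIN3, NCoR/SMRT and CoREST co-repressor complexes and for partners of the inner nuclear membrane protein emerin, were followed across 6 expression arrays. They are 9 of the 18193 genes that the platform annotation names alone on a probe set, and all 33 of their probe sets were used, of 45101 on the array. The arrays held total RNA from NIH3T3, an immortalised fibroblast line of mouse, all from clone M, which carries multiple insertions of lacO, the DNA element that the lac repressor binds. In the 3 tethered samples the insertion lay at the nuclear periphery, and in the 3 untethered samples it lay centrally. Both groups grew in medium with 10% serum to about 80% confluency, and the labels do not name the agent that moves the insertion or the protein that holds it. The cells are 1 clone of 1 line, and nothing in the labels tells whether the 3 arrays of a group came from cultures kept apart, so p-values measure only the spread between these samples, which may be technical.

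These co-repressors carry histone deacetylases to DNA. The SIN3 proteins are scaffolds that hold HDAC1 and HDAC2 together with SAP30, and they are recruited by factors such as the MXD partners of MAX. NCoR and SMRT hold HDAC3 together with GPS2 and the WD40-repeat proteins TBL1X and TBL1XR1, and serve unliganded nuclear receptors, while RCOR1 (CoREST) joins HDAC1 and HDAC2 to the demethylase KDM1A. Germ cell-less (Gmcl1) and Btf (Bclaf1) are transcriptional regulators known to bind emerin, and HDAC3 binds emerin as well, which ties these genes to the nuclear envelope.

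The 250 bases upstream of the annotated start are shown for Sap30, Rcor1 and Sin3b, picked by their values on the arrays (RefSeq, GRCm38.p6, read 5′ to 3′ on the gene's strand). The Sap30 probe set and 1 of the 3 Rcor1 probe sets followed each other over the arrays (r = 0.974), as did probe sets of other members. Those of Sin3b followed the replicate number most closely among the members. Capitals mark the GC box GGGCGG or its reverse complement.
Sin3b, chr8:72723020-72723269, plus strand: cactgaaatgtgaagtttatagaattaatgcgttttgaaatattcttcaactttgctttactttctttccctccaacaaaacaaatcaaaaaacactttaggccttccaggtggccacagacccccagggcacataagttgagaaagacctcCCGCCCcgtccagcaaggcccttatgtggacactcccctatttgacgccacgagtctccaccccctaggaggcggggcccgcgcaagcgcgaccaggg
Sap30, chr8:57487861-57488110, minus strand: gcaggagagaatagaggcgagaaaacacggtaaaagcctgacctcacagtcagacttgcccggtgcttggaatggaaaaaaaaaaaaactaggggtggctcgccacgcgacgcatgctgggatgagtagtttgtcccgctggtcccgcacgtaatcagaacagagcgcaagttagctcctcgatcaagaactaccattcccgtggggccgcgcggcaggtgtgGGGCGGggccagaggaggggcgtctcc
Rcor1, chr12:111039117-111039366, plus strand: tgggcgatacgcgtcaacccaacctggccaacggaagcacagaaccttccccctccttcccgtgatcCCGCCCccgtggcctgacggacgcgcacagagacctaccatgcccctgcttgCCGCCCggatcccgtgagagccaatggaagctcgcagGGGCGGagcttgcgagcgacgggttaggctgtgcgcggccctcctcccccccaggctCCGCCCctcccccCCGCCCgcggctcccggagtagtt
All 9 members matched the promoter table, with 10 windows in all because Sin3a has 2. The GC box, searched on both strands, was found in 9 of these 10 windows and in 32.7% of 32851 upstream windows of the same length. The exception was Gps2. The Rcor1 window held 5 GC boxes and the Sin3b and Sap30 windows 1 each. The motif CCAAT was found in 4 of the 10 windows and in 33.8% of all windows, and CACGTG in 0 of the 10 and in 6.02% of all. The members' windows had a median GC content of 63.2%, against 52.4% for all windows, and a match of letters is not a bound site.

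Values are the authors' intensities, set to at least 16 and taken as log2. A probe set was tested when its mean log2 intensity was higher than 8.93, the midpoint of all probe sets on the array, and 25 of the 33 members were, beside 22518 probe sets in all. Of the members, the probe set just inside the filter belonged to Gmcl1 (8.99) and the one just outside it to Sin3a (8.81). Median intensities ran from 482.4 to 490.9 over the arrays. Both arrays numbered 1, 1 of each group, stood apart on the first principal component, at -38.0 (tethered) and -30.3 (untethered) against 5.5 to 26.6 for the other 4. All 10 fibroblast markers (among them Col1a1, Fn1 and Vim) lay at or above percentile 86.6 of all probe sets, while Cdh1 (epithelial, 8.01) and Ptprc (leukocyte, 12.1) lay low. Of the other markers, 1 of 4 endothelial, 2 of 4 macrophage, 1 of 4 epithelial (Epcam, percentile 92.1), 2 of 3 neural and 3 of 4 muscle genes lay above the same midpoint. The log2 of the summed intensities of the endothelial list ran from 10.40 to 10.44 in tethered and from 10.26 to 10.37 in untethered arrays. The groups did not overlap, and the part of this list in the members' values was not tested. Control probe sets for the transferrin receptor read RNA quality as 5′ minus 3′ log2 signal, at -2.09, -1.67 and -1.55 in tethered and -2.81, -3.07 and -1.52 in untethered replicates 1, 2 and 3. The 18S ribosomal RNA control, read at its 5′ end, ran from 10.48 to 10.94 in tethered and from 11.15 to 12.16 in untethered arrays.

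The first comparison asked whether transcripts of these co-repressors differed when the insertion lay at the nuclear periphery. No member passed the adjusted threshold of 0.05: limma called 0 of 25 member probe sets, with adjusted p = 0.9994 for each, where percent called over all tested probe sets was 0. At an unadjusted p under 0.05 limma gave 1 member (a Bclaf1 probe set, lower in tethered cells), or 4% of 25, against 2.38% of all tested probe sets and 1.67% for the lower direction. Of the 25, 19 had a log2 fold change, tethered minus untethered, below 0, against 55.9% of all tested probe sets. The members' median was -0.08, with values from -0.44 to 0.46, and the median of all tested probe sets was -0.016. The 95% intervals, not adjusted for the number of probe sets, lay within 1 log2 unit of 0 (a 2-fold difference) for 24 of the 25, and that of 1 Tbl1x probe set reached 1.095.

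**Figure D1:**
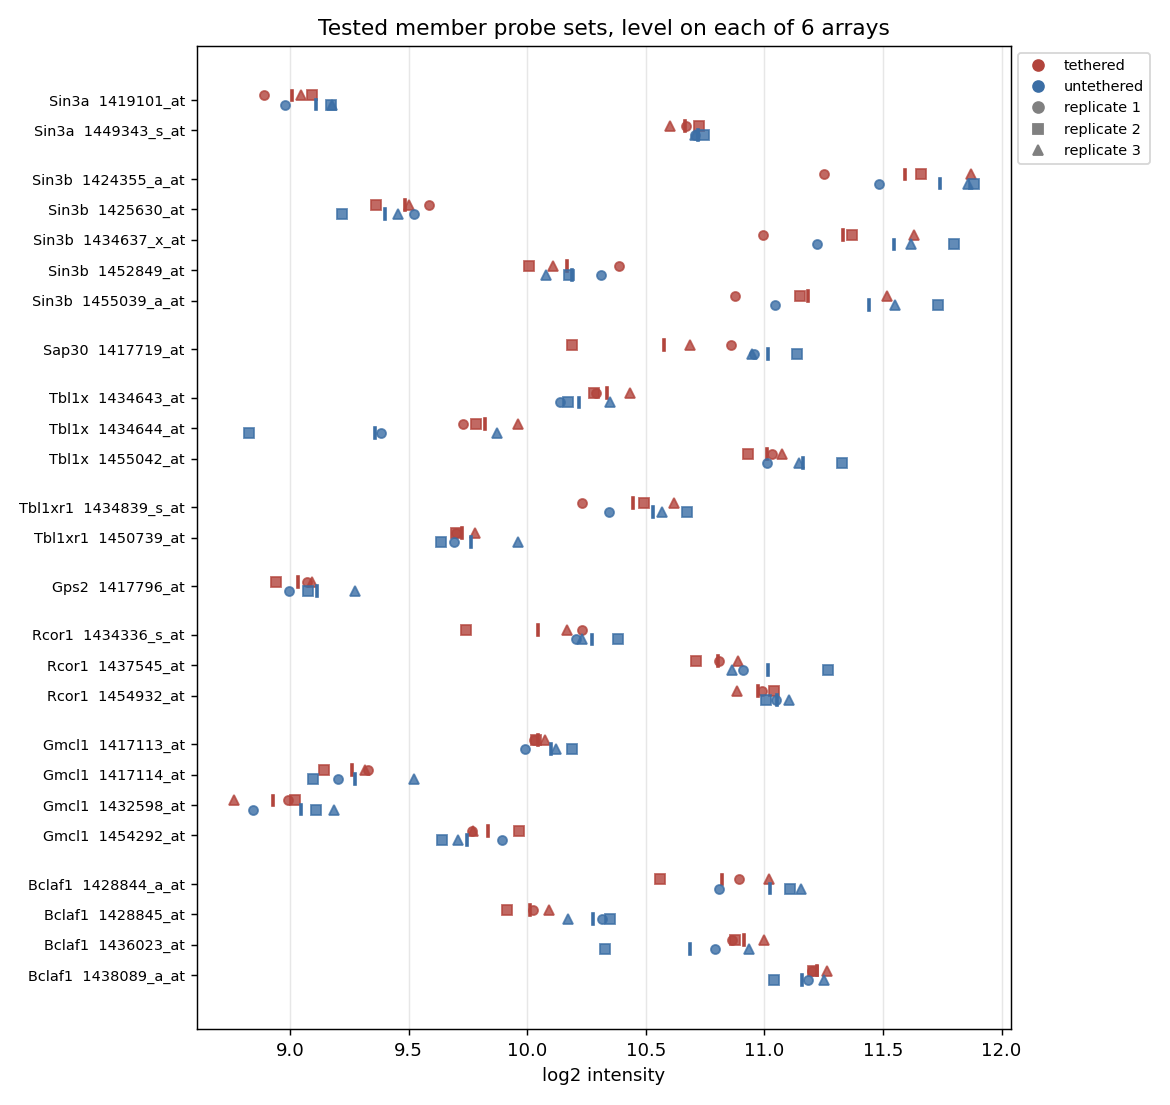
Log2 intensity (x axis) of each of the 25 tested member probe sets on the 6 arrays, tethered in red above and untethered in blue below, with the marker shape giving the replicate number and the short bar the mean of 3 arrays. The groups do not overlap for Sap30 (1417719_at) and for Bclaf1 1428845_at, and they overlap for the other 23.

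**Figure D2:**
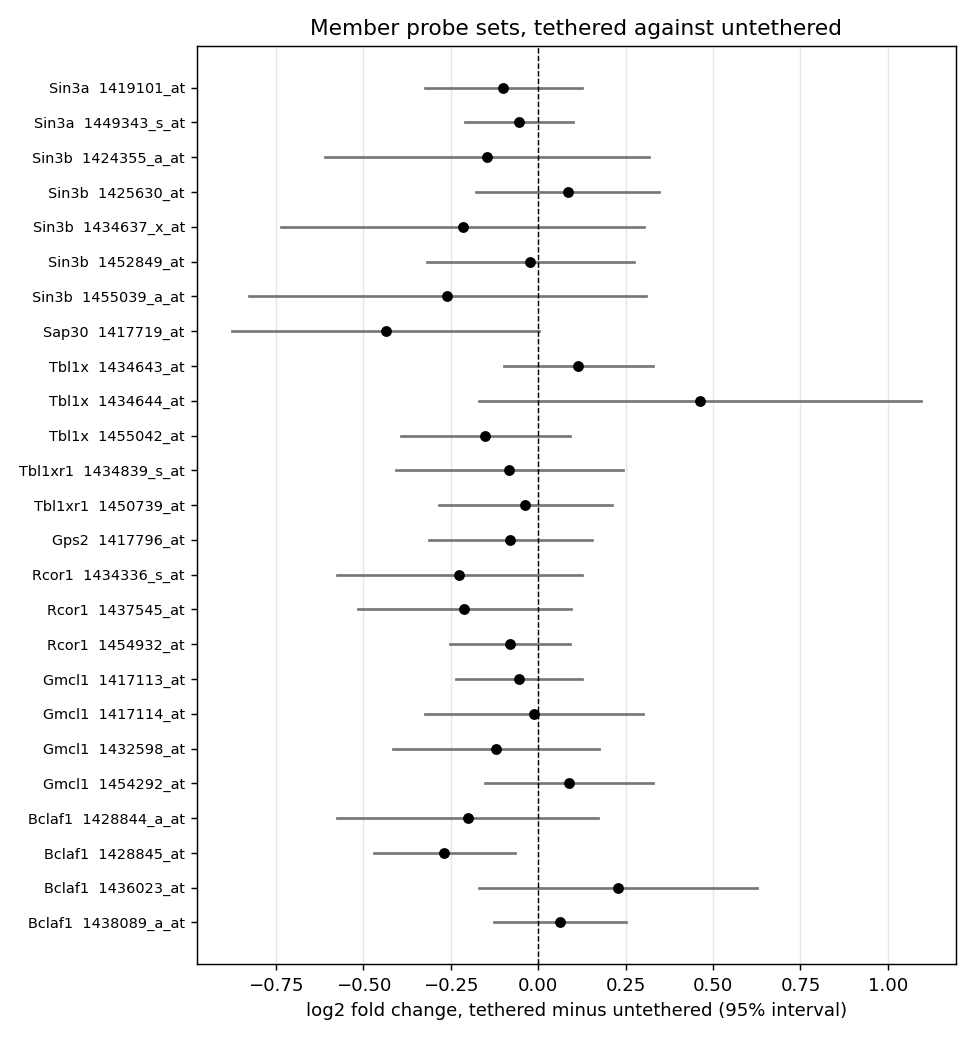
Log2 fold change, tethered minus untethered (x axis), of the 25 tested member probe sets with the 95% interval from limma as a bar. Of the points, 19 lie left of 0, and Bclaf1 1428845_at is the only tested member whose interval (-0.47 to -0.07) leaves out 0, without adjustment.

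Among the SIN3 subunits, the largest difference belonged to Sap30, the small subunit that helps hold the deacetylase complex together. Its 1 probe set, 1417719_at, had intensities of 1857, 1166 and 1647 in tethered replicates 1, 2 and 3, and of 1989, 2252 and 1973 in untethered replicates 1, 2 and 3. Every tethered array lay below every untethered array, and tethered replicate 2 lay lowest. Tethered arrays averaged 10.58 ± 0.35 (SD, n = 3) in log2 intensity and untethered arrays 11.01 ± 0.11 (SD, n = 3), which gave a log2 fold change of -0.44 (SE 0.18, 95% interval -0.88 to 0.003). Limma gave it an unadjusted p of 0.0513 and an adjusted p of 0.9994. Without tethered replicate 2 the value was -0.24, and without both arrays numbered 1 it was -0.605. Groups that did not overlap were found for 2 of the 25 members, both lower in tethered cells, or 8%, against 8.16% of all tested probe sets and 3.85% for this direction. The 18S 5′ signal did not overlap between the groups either, and its part in the Sap30 value was not tested. In such bulk RNA, fewer cells with a transcript and less of it per cell cannot be told apart.

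Sin3a, the main SIN3 scaffold, lay close between the groups. Its brightest probe set, 1449343_s_at, had log2 intensities of 10.67, 10.72 and 10.60 in tethered and 10.71, 10.74 and 10.71 in untethered replicates 1, 2 and 3, a range of 0.142 over all 6 arrays and the narrowest of the 25. The log2 fold change was -0.05 (95% interval -0.21 to 0.10), and the other tested Sin3a probe set, 1419101_at, gave -0.10 (-0.33 to 0.12). The groups overlapped on both. The interval of 1449343_s_at was the narrowest of the 25, followed by that of Rcor1 1454932_at (-0.25 to 0.09).

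Sin3b, its paralogue, was read by 5 tested probe sets that fell into 2 patterns. On 1424355_a_at, the intensities were 2438, 3235 and 3750 in tethered and 2866, 3774 and 3713 in untethered replicates 1, 2 and 3. The arrays numbered 1 were the lowest of each group, and the same held on 1434637_x_at and 1455039_a_at. The log2 fold changes of these 3 were -0.15 (SE 0.19), -0.22 (SE 0.21) and -0.26 (SE 0.23). Without tethered replicate 1 they were 0.024, -0.046 and -0.107, and without untethered replicate 1 the last 2 were -0.378 and -0.459. The remaining pair, 1452849_at and 1425630_at, were highest in the arrays numbered 1 of each group. On 1452849_at the log2 intensities were 10.39, 10.01 and 10.11 in tethered and 10.31, 10.18 and 10.08 in untethered replicates 1, 2 and 3, with log2 fold changes of -0.02 (SE 0.12) and, for 1425630_at, 0.08 (SE 0.11). Over 6 arrays, Pearson's r was 0.988 between 1434637_x_at and 1455039_a_at and -0.77 between 1424355_a_at and 1452849_at, so the probe sets annotated to Sin3b did not follow a single pattern. The suffix _a_at marks probe sets that several transcripts of a gene share, and _x_at marks those with probes that can match other genes. Probe sequences were not at hand, so the transcripts that any member probe set reads, also those with the suffix _s_at, were not checked. Of the 6 pairs that join a probe set of one pattern with one of the other, all had r below 0 over 6 arrays. For each pair, r was also taken without the 2 arrays farthest from the median of 1 of its probe sets. The arrays left out thus differed between pairs. On the 4 arrays left, r stayed below 0 for 3 pairs (down to -0.9, 1425630_at with 1434637_x_at). It lay above 0 for the other 3 (up to 0.956, 1452849_at with 1455039_a_at). Both arrays numbered 1 were left out for the pairs above 0, and at least 1 was kept for those below. The split therefore cannot be told apart from the choice of arrays.

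For the NCoR/SMRT subunits, the probe sets of Tbl1x gave values on both sides of 0. On 1434644_at the intensities were 848, 882 and 995 in tethered and 668, 454 and 937 in untethered replicates 1, 2 and 3. Untethered replicates 2 and 1 lay lowest, and untethered replicate 3 lay among the tethered arrays. The log2 fold change was 0.46 (SE 0.26, 95% interval -0.17 to 1.095), and it was 0.20 without untethered replicate 2 and 0.72 without untethered replicate 3. The other Tbl1x probe sets stood at 0.115 (1434643_at, SE 0.087) and -0.15 (1455042_at, SE 0.099). The brightest of the 3, 1455042_at, had log2 intensities of 11.03, 10.93 and 11.07 in tethered and 11.01, 11.33 and 11.15 in untethered replicates 1, 2 and 3, so that untethered replicate 2 was its highest array and the lowest of 1434644_at.

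Tbl1xr1, the paralogue of Tbl1x in the same complexes, had 2 tested and 4 dimmer probe sets. On 1434839_s_at the log2 intensities were 10.23, 10.49 and 10.62 in tethered and 10.34, 10.67 and 10.57 in untethered replicates 1, 2 and 3. The arrays numbered 1 were again the lowest of each group, and the log2 fold change was -0.08 (95% interval -0.41 to 0.24). On 1450739_at it was -0.04 (-0.28 to 0.21). Gps2, which joins these subunits and restrains inflammatory genes in other settings, had 1 probe set, 1417796_at, with log2 intensities of 9.07, 8.94 and 9.09 in tethered and 8.997, 9.07 and 9.27 in untethered replicates 1, 2 and 3. The groups overlapped, and the log2 fold change was -0.08 (95% interval -0.31 to 0.15).

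Rcor1, the CoREST scaffold, had all 3 probe sets below 0. On 1434336_s_at the intensities were 1201, 857 and 1152 in tethered and 1180, 1335 and 1202 in untethered replicates 1, 2 and 3. Tethered replicate 2 lay far below the other 5 arrays, as it did for Sap30, and the remaining arrays overlapped. The log2 fold change was -0.225 (SE 0.14) and -0.07 without tethered replicate 2. On 1437545_at the value was -0.21 (SE 0.125), and -0.085 without untethered replicate 2, its highest array at 2464 against 1678 to 1925 for the other 5. On the brightest probe set, 1454932_at, it was -0.08 (SE 0.071).

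Of the emerin partners, Bclaf1 held the smallest unadjusted p of the members, on 1 of its 4 tested probe sets. On 1428845_at the intensities were 1043, 965 and 1090 in tethered and 1275, 1304 and 1153 in untethered replicates 1, 2 and 3. Every tethered array lay below every untethered array. Tethered arrays averaged 10.01 ± 0.089 (SD, n = 3) in log2 intensity and untethered arrays 10.28 ± 0.094 (SD, n = 3), and limma gave a log2 fold change of -0.27 (SE 0.082), an unadjusted p of 0.0171 and an adjusted p of 0.9994. With 1 array left out the value ran from -0.32 to -0.22. The other Bclaf1 probe sets lay on both sides of 0, with overlapping groups: 1428844_a_at stood at -0.20 (SE 0.15) and the dim 1430581_at at -0.16 (SE 0.087), while 1436023_at stood at 0.23 (SE 0.16) and the brightest, 1438089_a_at, at 0.06 (SE 0.077). On 1436023_at the intensities were 1862, 1879 and 2046 in tethered and 1773, 1285 and 1956 in untethered replicates 1, 2 and 3, with untethered replicate 2 far below the rest, and the value was 0.05 without that array.

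Gmcl1, a BTB-domain protein named for its part in germ cell formation in the fly, had 4 tested probe sets with log2 fold changes from -0.12 (1432598_at, SE 0.12) to 0.09 (1454292_at, SE 0.098). On the brightest, 1417113_at, the log2 intensities were 10.03, 10.04 and 10.07 in tethered and 9.99, 10.19 and 10.12 in untethered replicates 1, 2 and 3, and the log2 fold change was -0.055 (95% interval -0.23 to 0.125). Groups overlapped on all 4, and 1417114_at stood at -0.01 (95% interval -0.32 to 0.30).

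The 8 member probe sets under the filter belonged to Sin3a (1), Tbl1xr1 (4), Gmcl1 (2) and Bclaf1 (1). Fitted without a filter over 45037 probe sets, 4 of the 8 lay below 0 and 4 above, against 51% of all probe sets below 0, and 0 were called by limma, with adjusted p of 0.989 or above. For 2 Tbl1xr1 probe sets the groups did not overlap, in opposite directions. On 1442312_at the intensities were 401, 457 and 428 in tethered and 370, 361 and 391 in untethered replicates 1, 2 and 3, a log2 fold change of 0.195 (SE 0.074). On 1455109_at they were 216, 228 and 228 in tethered and 236, 296 and 273 in untethered replicates 1, 2 and 3, a log2 fold change of -0.25 (SE 0.096). The other 6 had overlapping groups: Tbl1xr1 1457186_at stood at -0.20 (SE 0.10) and 1422761_at at 0.05 (SE 0.19), Gmcl1 1438887_a_at at 0.33 (SE 0.18) and 1438888_at at -0.02 (SE 0.11), Sin3a 1419102_at at 0.02 (SE 0.15) and Bclaf1 1430581_at as given. At an unadjusted p under 0.05, limma without the filter gave 4 of the 33 members (Sap30, Bclaf1 1428845_at, Tbl1xr1 1442312_at and Tbl1xr1 1455109_at), or 12.1%, against 3.96% of all probe sets. Without the filter, groups did not overlap for 4 of the 33 members and for 9.68% of all probe sets.

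The second comparison asked whether levels differed between arrays of different replicate number, whatever the group, with limma's moderated F-test. This test was set up when both arrays numbered 1 were already known to stand apart on the first principal component. It called 0 of 25 member probe sets, against 5.16% of all tested probe sets, and at an unadjusted p under 0.05 it gave 5 of 25, or 20.0%, against 22.6%. Of these 5, 4 belonged to Sin3b and 1 to Tbl1xr1. The smallest adjusted p, 0.0897, was that of Sin3b 1424355_a_at, whose mean log2 intensity was 11.37 in the arrays numbered 1, 11.77 in those numbered 2 and 11.87 in those numbered 3. Tbl1xr1 1434839_s_at stood at 10.29, 10.58 and 10.59 in the same order, with an adjusted p of 0.187. Over 5 lists of related genes, described further on, with the brightest probe set standing for each gene, 4 of 50 were called, or 8.0%, against 5.07% of genes. They were 3 of 16 SIN3 complex genes, 1 of 9 emerin and partner genes, and none of 3 NCoR and SMRT complex genes, 10 CoREST complex genes and 12 DNA-bound factors. Those of the SIN3 list were Hdac1 (adjusted p = 0.0234), Hdac2 (0.0458) and Rbbp7 (0.0491), the deacetylases and a histone-binding chaperone of the complex. Hdac1 stood at log2 intensities of 11.50 and 11.64 in the arrays numbered 1 and from 12.19 to 12.39 in the other 4. The emerin partner was Banf1, which bridges DNA (adjusted p = 0.0499), and all 4 were named after their values were seen.

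**Figure D3:**
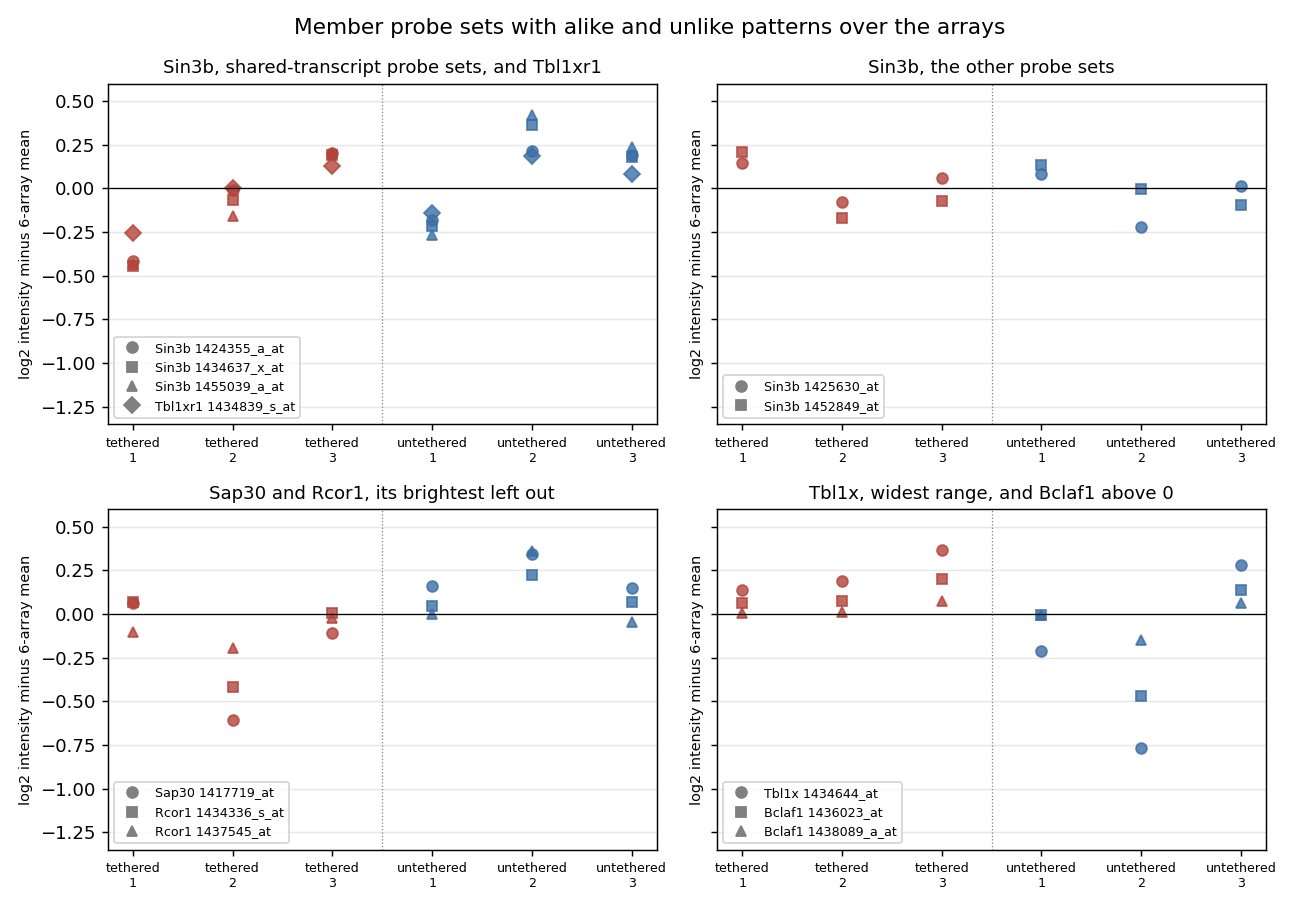
Log2 intensity minus its mean over the 6 arrays (y axis), for tethered (red) and untethered (blue) replicates along the x axis, with a marker shape for each probe set. Of the Sin3b probe sets, 3 are low in both arrays numbered 1, as is Tbl1xr1 1434839_s_at, and the other 2 are high there. Sap30 and Rcor1 1434336_s_at are lowest in tethered replicate 2, and Tbl1x 1434644_at and the 2 Bclaf1 probe sets plotted are lowest in untethered replicate 2.

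Some probe sets of different members followed each other, given here as a description of 6 arrays that share RNA and array effects. Among 270 pairs of tested probe sets from different members the median Pearson's r was 0.15, and 165 of them lay above 0. No such median over all tested probe sets is given here. The lowest r, -0.936, joined Gmcl1 1454292_at with Bclaf1 1428844_a_at, and the pairs named next were picked from the upper end. The highest of the 270 joined Sin3b 1434637_x_at with Tbl1xr1 1434839_s_at (r = 0.988, Spearman's rho = 1). On the 4 arrays nearest the median of that Sin3b probe set, r was 0.965. Sap30 and Rcor1 1434336_s_at had r = 0.974 and rho = 0.829. On the 4 arrays nearest the Sap30 median, which leave out replicate 2 of both groups, r was 0.76. Tbl1x 1434644_at followed Bclaf1 1436023_at (r = 0.973, rho = 1, and r = 0.987 on the 4 arrays nearest the Tbl1x median). The lowest arrays of that last pair, untethered replicates 2 and 1, were also the lowest in the transferrin receptor control (-3.07 and -2.81), and tethered replicates 1 and 2 came next in both orders, while the highest 2 arrays, replicate 3 of each group, changed places. The actin control, read the same way, was also lowest in untethered replicates 2 and 1 (-0.56 and -0.31) but highest in tethered replicate 2 (-0.1). The Gapdh control ran only from -0.06 in untethered replicate 2 to 0.1 in tethered replicate 1. The part of RNA quality in these values was not tested. Other probe sets of the same genes gave unlike values over the 6 arrays. Sap30 had r = 0.734 with Rcor1 1437545_at and 0.100 with 1454932_at. Bclaf1 1436023_at had r = 0.707 with Tbl1x 1434643_at and -0.738 with 1455042_at. Tbl1xr1 1434839_s_at had r = 0.983 and 0.960 with Sin3b 1424355_a_at and 1455039_a_at, and -0.738 and -0.721 with 1452849_at and 1425630_at.

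The 2 genes with the highest Pearson's r over the 6 arrays were then sought for the brightest probe set of each member. The search held 11845 other genes, the rest of the members included, and the genes found were all outside the members. They were Pdha1 (0.9974) and Dusp1 (0.9956) for Sap30, Gxylt1 (0.9995) and Ndufa3 (0.9976) for Sin3b, and Mrps15 (0.9987) and Ndufb7 (0.997) for Tbl1xr1. For Sin3a they were Prkca (0.9889) and Hoxb3 (0.984), for Tbl1x Tbc1d13 (0.997) and Hddc2 (0.9901), and for Gps2 Plekhg1 (0.9844) and Med17 (0.9839). For Bclaf1 they were Tmem88 (0.9981) and Ptprk (0.998), for Gmcl1 Riok2 (0.9961) and Srp9 (0.9886), and for Rcor1 Arrdc1 (0.9657) and Apobec1 (0.9551). With so many genes and 6 arrays, such values are the upper end of a large search.

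The members' complexes were then read through 5 lists of their other subunits, partners and recruiting factors, 58 genes of which 50 were tested. Limma called 0 of the 50 between tethered and untethered cells, where percent called over all genes was 0. At an unadjusted p under 0.05 there was 1 of 50, against 2.44% of all genes tested. Of the 50, 29 lay below 0, or 58.0%, against 58.8% of all genes tested, with a median log2 fold change of -0.054 against -0.022. Groups did not overlap for 5, or 10.0%, against 8.40% of genes. By list, values lay below 0 for 10 of 16 SIN3 complex genes, 3 of 3 NCoR and SMRT complex genes, 5 of 10 CoREST complex genes, 4 of 9 emerin and partner genes, and 7 of 12 DNA-bound factors.

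Of the SIN3 list, Phf12, a PHD-finger subunit, stood at 0.19 (SE 0.078) with groups that did not overlap, and Ing1, which reads methylated histone H3, at 0.20 (SE 0.099). Hdac3, the deacetylase of NCoR and SMRT, had log2 intensities of 10.51, 10.72 and 10.88 in tethered and 10.53, 10.87 and 10.96 in untethered replicates 1, 2 and 3, with the arrays numbered 1 lowest in each group. Zbtb33 (Kaiso), a methyl-DNA binder that recruits NCoR, stood at -0.13 (SE 0.079). In the CoREST list, Rcor3 stood at -0.16 (SE 0.082) and Phf21a, a reader of unmethylated histone H3, at 0.12 (SE 0.065), the latter with groups that did not overlap. Emerin itself (Emd) had log2 intensities of 11.16, 11.65 and 11.98 in tethered and 11.50, 11.86 and 11.98 in untethered replicates 1, 2 and 3, and Ctnnb1 stood at -0.19 (SE 0.10) and Syne2 at 0.14 (SE 0.068). Of the DNA-bound factors, Thra, the thyroid hormone receptor alpha, lay lower in every tethered than in every untethered array (-0.20, SE 0.078), and Mxi1, a MAX partner that recruits SIN3, stood at -0.29 (SE 0.17).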

How the data were processed

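Affymetrix arrays were hybridised with biotin-labelled total RNA of 6 samples, per the labels. The authors deposited 1 linear intensity for each probe set on each array; its software and scaling method: not given in the sources used here. Genes were named from the platform annotation, and all 33 member probe sets carried the same symbol in a RefSeq gene table (GRCm38.p6). Of 45101 probe sets, 64 controls were left out. Intensities were floored at 16 and log2 was taken. Groups were compared with limma 3.58.1 (R 4.3.3; lmFit and eBayes, two-sided, no covariate, 6 arrays) over all 22518 tested probe sets with Benjamini-Hochberg adjustment, called under 0.05. The F-test of replicate number used the same settings with group and number as terms. All 9 members and every probe set were named. From the related lists, Hdac3, Emd and up to 2 genes per list with the smallest unadjusted p were named, with Hdac1, Hdac2, Rbbp7 and Banf1 added after their F-test values were seen, and 2 most alike genes per member. Members, lists, alternatives and the F-test of replicate number were chosen with earlier results of these data known. The alternatives were other floors, filters and scalings, a variance trend, the replicate number as a block, and arrays left out. Tested on simulated arrays of 22518 probe sets, the group comparison recovered 22.5% of 200 probe sets moved 1.5-fold and 66.5% of those moved 2-fold. Of 4-fold and 8-fold shifts it recovered 90.0% and 97.5%. Of the unchanged probe sets it called 2, 7, 7 and 15 in the 1.5-, 2-, 4- and 8-fold runs. The simulated noise was drawn separately for each probe set and array, without effects that probe sets of an array share. The recovery on the real arrays may therefore differ. Precision is limited by the number of arrays, and no detection calls were used.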

Additional observations from a re-analysis of the deposited data

How the results depend on the processing

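Under 13 alternatives, limma called 0 of the members and 0 of all tested probe sets between the groups. The smallest adjusted p of any probe set was 0.69. At an unadjusted p under 0.05 all tested probe sets gave 160 higher and 376 lower, and 252 and 278 after quantile normalization. With 1 array left out their total of 536 ran from 237 (without tethered replicate 2) to 1499 (without tethered replicate 1, 230 higher and 1269 lower). It was 256, 803 and 935 without untethered replicates 2, 1 and 3, the last with 472 higher and 463 lower. The members' median, -0.08 in the main fit, ran from -0.138 without untethered replicate 1 to -0.046 without tethered replicate 1. Under each of the 13 it moved by less than the spread between arrays (SD 0.073), a margin about as large as the median itself. Their count below 0, 19 of 25 in the main fit, ran from 17 to 20 of 25, and was 23 of 33 without the filter. The share of all tested probe sets below 0 was 55.9% in the main fit and 51% without the filter. It ran from 46.5% after quantile normalization to 59.5% without untethered replicate 1. Of the 25 member probe sets, 19 kept their direction under all 13 alternatives. The other 6 crossed 0, and the cause was not tested. With 1 array left out, Sin3b 1452849_at ran from -0.132 to 0.058, Sin3b 1424355_a_at from -0.286 to 0.024, Sin3b 1425630_at from -0.006 to 0.146, Tbl1xr1 1434839_s_at from -0.174 to 0.025, Tbl1xr1 1450739_at from -0.100 to 0.062 and Gmcl1 1417114_at from -0.101 to 0.113. Sin3b 1452849_at stood at 0.005 after quantile normalization. The F-test of replicate number called 1161 probe sets, and 645 without the filter, where more probe sets were tested.

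The replicate numbers did not meet the rule for pairing: same-numbered arrays had correlations of deviations of 0.71, 0.075 and 0.711 for numbers 1, 2 and 3, and arrays numbered 2 correlated best with arrays numbered 3. With the replicate block limma called 0 members and 0 probe sets, with 2 members (Bclaf1 1428845_at and Tbl1x 1434644_at) and 1232 probe sets at an unadjusted p under 0.05. The block left fold changes as they were. A dim probe set's level is limited by signal over background, which was not given here.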
